A study of Mus musculus with 42 samples.

Results

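Growth hormone (GH) responsive liver genes were followed in mouse liver: Hsd3b5, Egfr, Mup21, Obp2a, Akr1c19, Serpina4-ps1, Igf1, Ghr, Socs2 and Igfals. The 10 genes were picked by name, with results of these same arrays known, and each was read from its brightest probe set that lists 1 gene symbol. All 10 were measured, of 17989 genes in all. The choice drew on the comparisons of diet with control, so differences of these genes from control are given as a description with no p-value. Counts of calls among them are printed beside the share over all genes, with nothing read from them.

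The liver came from male C3HeB/FeJ mice, an inbred strain often called C3H, of wild-type genotype, housed singly and sampled in the random-fed state. A high-fat diet (HFD) was given for 7 days to mice aged 15 weeks, for 14 days to mice aged 16 weeks and for 21 days to mice aged 17 weeks, with 8 arrays each. Controls received a low-fat diet for up to 21 days, were 15 to 17 weeks old and gave 18 arrays. Age rose with time on HFD, so age and time on the diet cannot be told apart between the HFD groups. The word reanalysis stands in the titles of control and 21-day arrays and not in those of the 7-day and 14-day arrays, so whatever this word marks cannot be told apart from diet at 7 and 14 days.

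GH is released from the pituitary in pulses and binds its receptor on hepatocytes. The receptor activates the kinase JAK2, which phosphorylates the transcription factor STAT5, and STAT5 switches on genes such as Igf1 and the feedback inhibitors Socs2 and Cish. Male rodents have widely spaced pulses and females a more continuous pattern, and this difference sets the sex bias of many liver genes, among them Hsd3b5 and the major urinary proteins.

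The values are log2 signals, so a difference of 1 is a doubling of signal. Olfactory receptor genes, which liver is not known to use, served as a background level, with a median of 2.28 and a 95th percentile of 2.86 on the log2 scale over 929 genes. The mean log2 signals of the 10 genes ran from 4.63 for Socs2 to 10.14 for Mup21, all above that percentile. Hepatocyte markers, 10 of 12 measured, averaged between 11.48 and 12.14 on every array, which fits the tissue label. Pancreatic acinar markers, 17 of 22 measured, averaged between 3.25 and 9.005, so some arrays of every group had acinar transcripts above background. Their range was 3.39 to 9.005 at 7 days, 3.32 to 8.78 at 14 days, 3.25 to 6.10 at 21 days and 3.28 to 7.92 in controls. No relation of the 10 genes to the acinar level passed the permutation test described below. In whole liver, fewer cells of a type and less RNA per cell cannot be told apart.

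STAT5 binds the palindrome TTCNNNGAA, so the 250 bases before each RefSeq transcript start (assembly GRCm38.p6) were searched for it. The palindrome reads the same on both strands. Windows were at hand for 8 of the 10 genes, 11 windows in all, since Igfals has 3 and Ghr 2. A match stood in 3 of the 11, which were 2 of the Igfals windows and the Akr1c19 window. Of all 32851 windows of this length, 7.02% held one. The matching windows are shown, with that of Hsd3b5 as a male-biased gene whose window has no match, and capitals mark the match. The first Igfals window is chr17:24877594-24877843 and the second chr17:24877981-24878230, both on the plus strand. The Akr1c19 window is chr13:4233490-4233739 on the plus strand and the Hsd3b5 window chr3:98645535-98645784 on the minus strand.
Igfals window 1: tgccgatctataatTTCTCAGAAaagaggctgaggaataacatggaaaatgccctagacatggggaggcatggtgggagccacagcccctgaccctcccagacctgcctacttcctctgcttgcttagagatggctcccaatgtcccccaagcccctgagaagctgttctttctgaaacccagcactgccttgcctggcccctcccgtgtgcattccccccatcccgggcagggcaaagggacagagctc
Igfals window 2: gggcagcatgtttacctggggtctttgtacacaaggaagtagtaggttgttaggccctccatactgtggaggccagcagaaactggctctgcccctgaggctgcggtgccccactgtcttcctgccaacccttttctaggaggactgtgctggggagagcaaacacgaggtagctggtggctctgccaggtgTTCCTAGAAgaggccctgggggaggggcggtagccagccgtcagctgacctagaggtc
Akr1c19: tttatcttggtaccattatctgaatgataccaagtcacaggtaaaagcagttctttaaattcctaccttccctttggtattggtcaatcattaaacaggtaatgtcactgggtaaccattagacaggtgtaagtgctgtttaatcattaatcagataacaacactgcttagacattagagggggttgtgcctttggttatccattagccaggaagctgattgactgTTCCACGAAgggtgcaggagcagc
Hsd3b5: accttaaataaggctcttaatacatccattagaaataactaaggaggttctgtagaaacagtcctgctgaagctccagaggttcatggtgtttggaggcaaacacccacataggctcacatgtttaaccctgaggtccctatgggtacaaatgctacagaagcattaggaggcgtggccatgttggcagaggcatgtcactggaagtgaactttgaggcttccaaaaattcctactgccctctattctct
In Igfals, which encodes the acid-labile subunit that holds IGF1 in its circulating complex, the matches lay at bases -236 to -228 and -58 to -50 from the starts of windows 1 and 2, and the remaining Igfals window held none. In Akr1c19, a gene of the aldo-keto reductase family, the match lay at bases -24 to -16 from the start. RefSeq begins the Akr1c19 gene at base 4233503 and the Igfals gene at base 24877844. The Akr1c19 match and that of Igfals window 2 thus lie inside the gene, before a later transcript start. A match in letters is not evidence of binding, and the absence of one covers this window alone.

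The receptor gene Ghr had nearly the same level in every group. Its log2 signal was 9.81, 9.995 and 10.10 (lowest, median and highest array) at 7 days, 9.80, 9.93 and 10.14 at 14 days and 9.57, 9.96 and 10.29 at 21 days, against 9.66, 9.95 and 10.20 in controls. The groups overlapped throughout. The log2 difference from control was 0.01 at 7 days, -0.04 at 14 days and -0.05 at 21 days (SE 0.07 each), and its 95% interval at 21 days ran from -0.20 to 0.10. Ghr also had a small pooled spread between arrays of a group, an SD of 0.17, at the 9.2th percentile of genes above background.

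Igf1, the circulating growth factor made by liver under GH, had a mean nearer to that of controls at 7 days than at 21 days. The order of the HFD times was not resolved, as given below. Igf1 had log2 signals of 8.49, 8.76 and 9.28 (lowest, median and highest) at 7 days, 8.34, 8.66 and 9.03 at 14 days and 8.15, 8.50 and 9.10 at 21 days, against 8.47, 8.80 and 9.47 in controls. At 21 days 4 of 8 arrays lay below every control. The log2 difference from control was -0.04, -0.18 and -0.31 at 7, 14 and 21 days (SE 0.11 each). At 21 days the arrays numbered 1 to 4 lay wholly below those numbered 5 to 8, and the difference from control was -0.61 with the first 4 alone and -0.01 with the other 4 alone. Ghr split in the same way at 21 days, with -0.27 for arrays 1 to 4 and 0.17 for arrays 5 to 8.

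Igfals spread widely inside each group. Its log2 signal was 6.70, 7.32 and 7.76 (lowest, median and highest) at 7 days, 6.16, 7.48 and 7.68 at 14 days and 6.10, 7.46 and 7.70 at 21 days, against 6.16, 7.62 and 7.96 in controls. The log2 difference from control was -0.13, -0.06 and -0.21 (SE 0.20 each), at most slightly above its error.

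Socs2, a feedback inhibitor that STAT5 induces, was the most variable gene of the 10 after Serpina4-ps1, with a pooled SD of 0.60. Its log2 signal was 3.60, 4.36 and 5.57 (lowest, median and highest) at 7 days, 3.87, 4.77 and 5.51 at 14 days and 3.70, 4.39 and 5.20 at 21 days, against 3.67, 4.65 and 5.59 in controls. The log2 difference from control was -0.27, 0.07 and -0.20 (SE 0.24 each), and the 95% interval spanned 0 at each time. Whether this probe set reads the Socs2 locus was not settled. RefSeq places Socs2 on chromosome 10, but of the 20 named probe sets nearest to it by identifier 17 belong to genes of chromosome 12. A second, dimmer Socs2 probe set, with a mean log2 signal of 4.01, has 19 of 20 such neighbours on chromosome 10. It followed the brighter one over the arrays with r = 0.74 after removal of group means (n = 42 arrays), and its log2 difference from control was -0.09, 0.03 and -0.11 at 7, 14 and 21 days. All other Socs2 values given here are from the brighter probe set unless the dimmer is named.

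**Figure D1:**
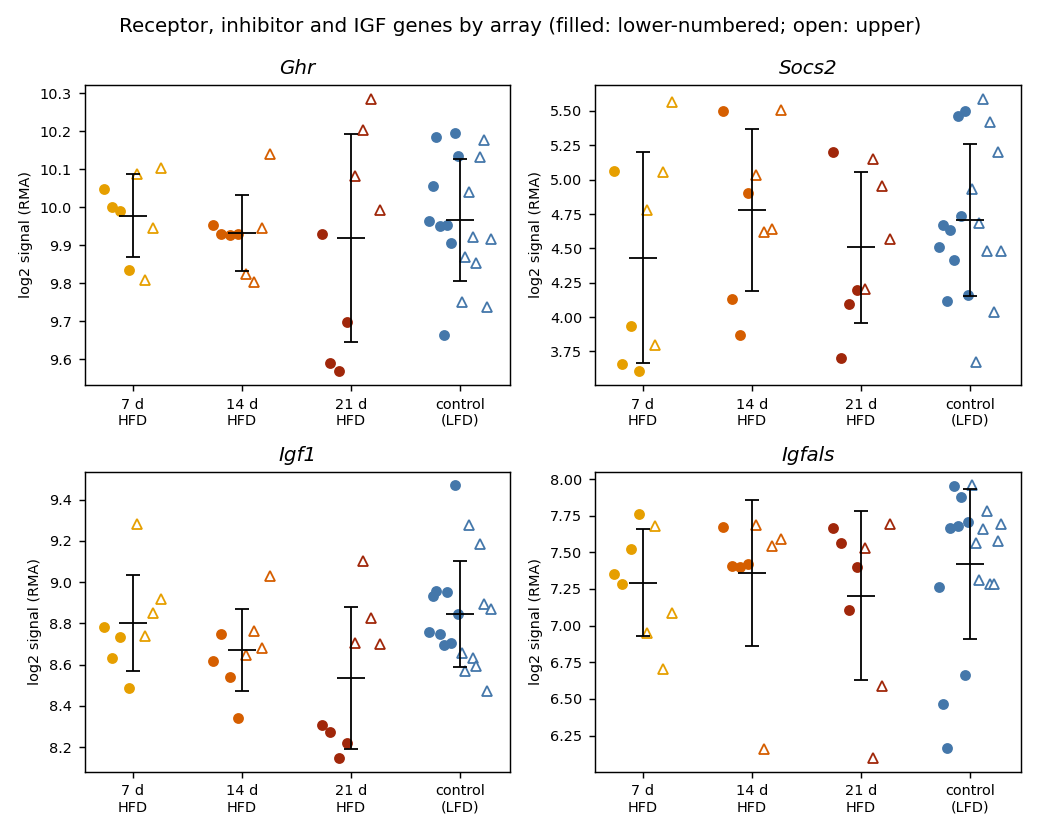
Log2 signal of Ghr, Socs2, Igf1 and Igfals on each array, by group. Bars show the mean and SD of a group (n = 8, 8, 8 and 18 arrays), filled points the arrays numbered 1 to 4 (controls 1 to 9) and open points the higher numbers. The HFD groups overlap the controls in all 4 genes, and the filled 21-day points of Igf1 lie below the open ones.

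The other 6 genes, called target genes here, had lower mean signal than controls at all 3 times. Egfr, the receptor of epidermal growth factor, is strongly expressed in male liver. Its log2 signal was 6.87, 7.87 and 8.77 (lowest, median and highest) at 7 days, 7.09, 8.31 and 9.07 at 14 days and 7.03, 7.74 and 8.52 at 21 days, against 8.07, 8.72 and 9.64 in controls. At 7 days 5 of 8 arrays lay below every control, at 14 days 2 and at 21 days 5. The log2 difference was -0.96, -0.63 and -0.97 at 7, 14 and 21 days (SE 0.22 each).

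Hsd3b5, a steroid-metabolising enzyme of male mouse liver, had log2 signals of 7.74, 8.40 and 8.55 (lowest, median and highest) at 7 days, 7.75, 8.53 and 9.26 at 14 days and 7.89, 8.49 and 8.93 at 21 days, against 8.12, 8.95 and 10.04 in controls. All 8 arrays at 7 and at 21 days lay below the control mean, and 7 of 8 did at 14 days, but the ranges overlapped. The log2 difference was -0.73, -0.52 and -0.65 (SE 0.17 each).

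Mup21 and Obp2a are lipocalins, small carriers of volatile ligands. Mup21, a major urinary protein, had log2 signals of 9.36, 9.85 and 10.38 (lowest, median and highest) at 7 days, 9.80, 10.06 and 10.52 at 14 days and 9.46, 9.76 and 10.54 at 21 days, against 9.88, 10.42 and 10.96 in controls. Its log2 difference was -0.54, -0.31 and -0.51 (SE 0.13 each). Transcripts of near-identical Mup genes may hybridise to this probe set. Of the other listed Mup genes only Mup3 and Mup5 were measured, and limma called neither against control. Mup3 had a mean log2 signal of 11.44, 11.44 and 11.33 at 7, 14 and 21 days, against 11.46 in controls. Mup5 had 3.60, 3.67 and 3.61, against 3.79.

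Obp2a was much dimmer, with log2 signals of 3.73, 4.45 and 5.66 (lowest, median and highest) at 7 days, 3.77, 4.05 and 4.55 at 14 days and 4.005, 4.499 and 4.72 at 21 days, against 4.29, 5.56 and 6.70 in controls. At 14 days 7 of 8 arrays lay below every control. The log2 difference was -0.95, -1.46 and -1.07 (SE 0.20 each), which is a signal 1.93, 2.75 and 2.10 times lower than in controls.

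Akr1c19 had log2 signals of 5.52, 6.12 and 6.66 (lowest, median and highest) at 7 days, 5.57, 5.89 and 6.44 at 14 days and 5.45, 6.07 and 6.46 at 21 days, against 6.21, 6.79 and 7.27 in controls. All 24 HFD arrays lay below the control mean. The log2 difference was -0.62, -0.81 and -0.77 (SE 0.14 each).

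Serpina4-ps1, a transcribed pseudogene of the serpin family, had the widest spread of the 10, with a pooled SD of 1.21, at the 99.8th percentile of genes above background. Its log2 signal was 3.07, 4.51 and 6.73 (lowest, median and highest) at 7 days, 3.37, 5.09 and 6.63 at 14 days and 3.25, 4.81 and 6.15 at 21 days, against 4.49, 6.80 and 8.71 in controls. The log2 difference was -1.83, -1.57 and -1.89 (SE 0.48 each). In every HFD group the arrays numbered 5 to 8 lay above those numbered 1 to 4 with no overlap, by 1.61, 1.44 and 2.22 on the log2 scale at 7, 14 and 21 days. With arrays 1 to 4 alone the difference from control was -2.63, -2.29 and -3.00, and with arrays 5 to 8 alone it was -1.02, -0.86 and -0.78.

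**Figure D2:**
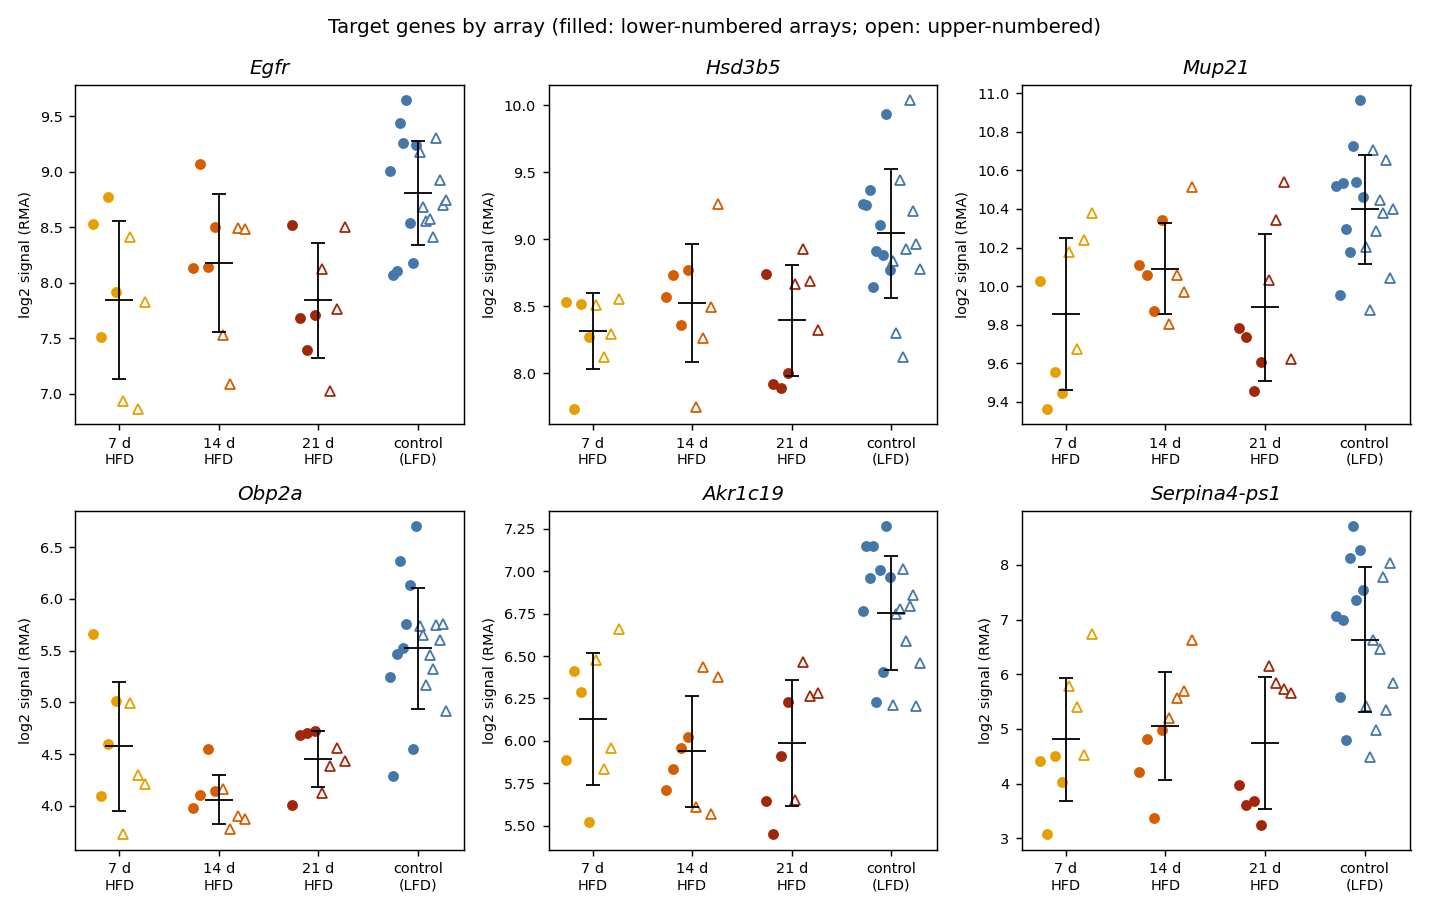
Log2 signal of the 6 target genes on each array, by group, drawn as for the receptor and IGF genes (mean and SD, n = 8, 8, 8 and 18 arrays). HFD points sit low against the controls in all 6 panels, and the filled and open Serpina4-ps1 points of each HFD group do not overlap.

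**Figure D3:**
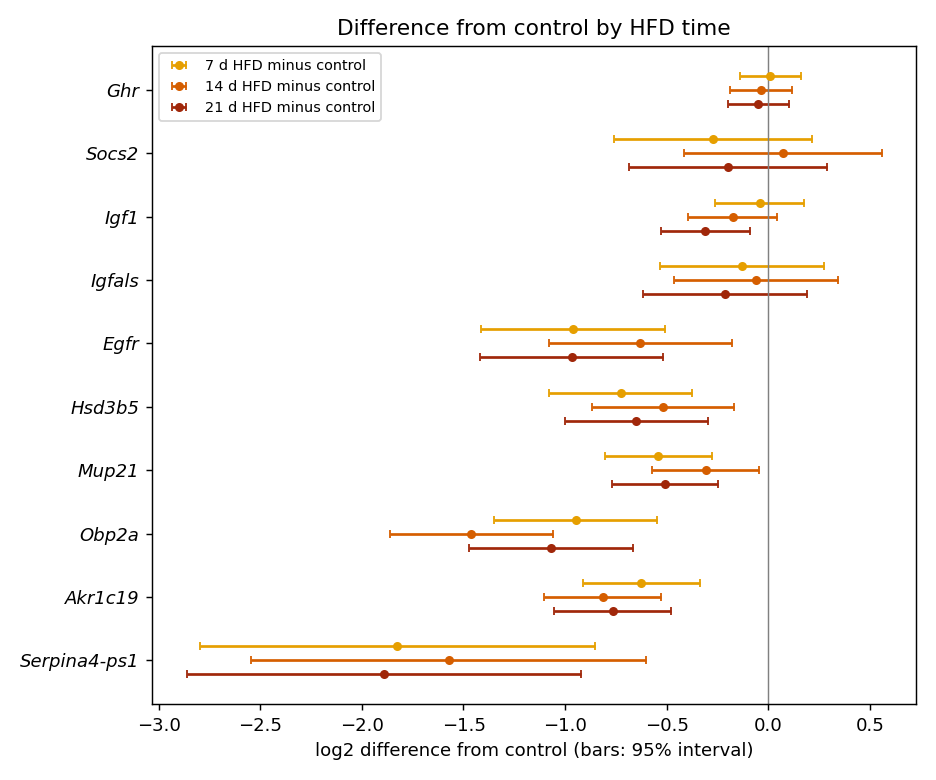
Log2 difference from control of the 10 genes at 7, 14 and 21 days of HFD, with 95% intervals from the fit over all genes. The 6 target genes lie below 0 at each time, while the intervals of Ghr, Socs2 and Igfals span 0.

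In the fit over all genes (limma, adjusted p under 0.05), 6 of the 10 genes were called lower at 7 days, 2 at 14 days and 5 at 21 days, and 0 were called higher. Of all genes, limma called 1.4% at 7 days (0.239% lower, 1.16% higher), 0.667% at 14 days (0.161% lower, 0.506% higher) and 0.7% at 21 days (0.256% lower, 0.445% higher). Because the genes were chosen from these contrasts, nothing is read from this. Obp2a and Akr1c19 were called at all 3 times, Egfr, Mup21 and Serpina4-ps1 at 7 and 21 days, and Hsd3b5 at 7 days. The median log2 difference over the 10 genes was -0.58, -0.41 and -0.58 at 7, 14 and 21 days, beside -0.01, -0.00 and 0.01 over all genes. With the 9 controls numbered 10 to 18 in place of all 18, the number called lower was 1 at 7 days and 1 at 21 days. Leaving out array 2 of 7 days gave 3, and leaving out array 3 of 21 days gave 2. With each array left out in turn, the Mup21 call at 21 days was lost in 20 of 26 cases. The Serpina4-ps1 call was lost in 13 of 26 at 7 days and 15 of 26 at 21 days. Every other call was lost in at most 3 of 26.

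The order of the 3 HFD times was not resolved for any of the 10 genes. Between the times limma called none of them, where the share of all genes called was 0% for 14 against 7 days, 0.00556% for 21 against 7 days and 0% for 21 against 14 days. At an unadjusted p under 0.05 limma gave 2 of 30 member comparisons, Obp2a for 14 against 7 days (log2 difference -0.51) and Igf1 for 21 against 7 days (-0.27). Their adjusted p was 0.9998 and 0.6847 over all genes. Of all 17989 genes, 451, 1283 and 715 had an unadjusted limma p under 0.05 for 14 against 7, 21 against 7 and 21 against 14 days. Nothing is read from the 2 member comparisons.

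Other genes of the pathway came from lists written with earlier results known. Among the receptor and signalling genes 4 of 7 were measured, and among the inhibitors 7 of 8. Among the IGF axis 11 of 12 were measured, and among the transcription factors linked to sex bias 10 of 12. Limma called 0 of them at any time against control, beside 1.4%, 0.667% and 0.7% of all genes at 7, 14 and 21 days. These 0 calls are near that share for lists this small, so nothing is read from them. Cish, the STAT5-induced inhibitor related to Socs2, had a log2 difference of -0.13, 0.12 and -0.33 (SE 0.27 each). Jak2, the kinase of the receptor, had 0.21, 0.14 and -0.12 (SE 0.19 each), and Stat5a had 0.22, -0.04 and -0.06 (SE 0.11 each). Bcl6, a repressor that opposes STAT5 at many liver genes, had -0.18, -0.48 and -0.44 (SE 0.44 each). Igfbp1, a binding protein of IGF1, had 0.65, 0.29 and 0.25 (SE 0.21 each).

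Of 19 other male-biased genes, limma called 3 lower and 1 higher at 7 days, 1 lower and 1 higher at 14 days, and 4 lower and 0 higher at 21 days. Over all genes the share called lower was 0.239%, 0.161% and 0.256% and the share called higher 1.16%, 0.506% and 0.445% at 7, 14 and 21 days. The median log2 difference of the 19 was -0.18, -0.21 and -0.46, beside -0.01, -0.00 and 0.01 over all genes. Cyp7b1, an oxysterol hydroxylase, fell by 0.93 at 7 days and by 0.82 at 21 days on the log2 scale. C8b, a complement component, fell at all 3 times, by 0.68, 0.58 and 0.75. Gstp1, a glutathione transferase, fell by 0.72 at 7 days and 0.76 at 21 days. C6, another complement component, fell by 0.75 at 21 days. Ces2e, a carboxylesterase, rose by 0.62 at 7 days and 0.50 at 14 days. Only genes that limma called are named here, and the other genes of the 19 were not called at any time against control.

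Of 21 female-biased genes, of which 14 had a mean signal above the background percentile, limma called 6 higher at 7 days, 3 at 14 days and 3 at 21 days, and 0 lower, beside 1.16%, 0.506% and 0.445% of all genes called higher. Their median log2 difference was 0.06, 0.04 and 0.05. Cyp2b9, a cytochrome P450 of female liver, rose by 2.06, 1.90 and 3.52 on the log2 scale over a control mean of 2.67, which lies below the background percentile. Abcd2, a peroxisomal fatty acid transporter, rose by 1.89, 1.84 and 1.63. Acot3, a peroxisomal thioesterase, rose by 1.07, 0.62 and 0.76. Cyp3a44 rose by 0.69 at 7 days.

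Relatives of the target genes are given beside the share of all genes called, 1.4%, 0.667% and 0.7% at 7, 14 and 21 days. Limma called 0 of 9 other genes of the ErbB receptors and their ligands, 0 of 5 other Hsd3b genes and 0 of 8 other Akr1c genes against control at any time. These counts are near that share for lists this small, so nothing is read from them. Among 7 other Mup and lipocalin genes Lcn2, an acute-phase lipocalin, rose by 1.12 at 7 days. Among 7 other Serpina genes Serpina7, the thyroxine-binding globulin, rose by 1.73, 1.22 and 1.23 at 7, 14 and 21 days, and Serpina6, the corticosteroid-binding globulin, rose by 0.63 at 7 days. Kupffer cell markers, 12 measured, averaged 5.52 ± 0.12 at 7 days, 5.36 ± 0.15 at 14 days and 5.31 ± 0.23 at 21 days, against 5.22 ± 0.15 in controls (SD). Limma called 3 of the 12 higher at 7 days, Cd68, Vsig4 and C1qc, beside 1.16% of all genes. The part of these cells in the differences of the 10 genes was not tested.

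Array-to-array co-variation was measured by Pearson's r over the 45 pairs of the 10 genes, with a 2-sided permutation p adjusted over the 45. In the 18 controls, where diet does not vary, 8 pairs passed. The controls were 15 to 17 weeks old with no age given per array, so age was not held fixed. Igf1 went with Hsd3b5 (r = 0.79, rho = 0.72, adjusted permutation p = 0.0047) and with Ghr (r = 0.74, rho = 0.83, adjusted permutation p = 0.0077). Ghr went with Akr1c19 (r = 0.77, rho = 0.75, adjusted permutation p = 0.0047), and opposite to Igfals (r = -0.70, rho = -0.72, adjusted permutation p = 0.010). Without the 2 arrays farthest from the median of the first gene, r was 0.72 for Igf1 with Hsd3b5, 0.73 for Ghr with Igf1, 0.67 for Ghr with Akr1c19 and -0.63 for Ghr with Igfals. No pair of the 45 then passed, and the smallest adjusted permutation p was 0.055.

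The other 4 control pairs were Igf1 with Mup21 (r = 0.68, rho = 0.66, adjusted permutation p = 0.016), Egfr with Obp2a (r = 0.64, rho = 0.62, adjusted permutation p = 0.028), Igfals with Egfr (r = 0.62, rho = 0.41, adjusted permutation p = 0.029) and Igfals with Akr1c19 (r = -0.59, rho = -0.55, adjusted permutation p = 0.046). By rho alone the last 2 did not pass, with an adjusted permutation p of 0.25 and 0.073. Igfals with Egfr rested on part of the arrays: r was 0.37 without the 2 farthest arrays, 0.81 in controls 1 to 9 and -0.13 in controls 10 to 18. Igf1 with Mup21 had r = 0.45 without the 2 farthest arrays, Egfr with Obp2a 0.61 and Igfals with Akr1c19 -0.60. Without control array 8, which had the highest Ghr, Igf1, Mup21 and Akr1c19 of all controls, 4 pairs passed.

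In the 24 HFD arrays, after removal of group means, 19 of 45 pairs passed, 5 of which had passed in controls. These pooled values include the split by array number that Serpina4-ps1 shows. After the means of arrays 1 to 4 and 5 to 8 of each HFD group, and of controls 1 to 9 and 10 to 18, were also removed (subset means below), 10 pairs passed in HFD arrays and 6 in controls, and 2 passed in both: Ghr with Igf1, and Igf1 with Hsd3b5. For Ghr with Igf1 the r after this step was 0.62 in HFD arrays (adjusted permutation p = 0.0090) and 0.72 in controls (adjusted permutation p = 0.012). For Igf1 with Hsd3b5 it was 0.55 in HFD arrays (adjusted permutation p = 0.023) and 0.78 in controls (adjusted permutation p = 0.012). Before this step rho in HFD arrays was 0.76 for Ghr with Igf1 and 0.51 for Igf1 with Hsd3b5, where the adjusted permutation p of rho was 0.061. Also before it, without the 2 farthest HFD arrays, r was 0.73 for Ghr with Igf1 (adjusted permutation p = 0.011). For Igf1 with Hsd3b5 it was then 0.51, which did not pass (adjusted permutation p = 0.068). In HFD arrays 1 to 4 and 5 to 8, r was 0.46 and 0.71 for Ghr with Igf1, and 0.29 and 0.70 for Igf1 with Hsd3b5. The removal of subset means was chosen after the data were seen.

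Among the HFD arrays Ghr, Socs2, Hsd3b5 and Mup21 went together. With subset means removed, r was 0.74 for Ghr with Hsd3b5, 0.74 for Ghr with Mup21, 0.68 for Ghr with Socs2, 0.71 for Hsd3b5 with Mup21 and 0.69 for Socs2 with Mup21, each with an adjusted permutation p between 0.0045 and 0.011. Before that step their rho was 0.73, 0.64, 0.60, 0.77 and 0.72 in the same order, and without the 2 farthest arrays r was 0.74, 0.60, 0.56, 0.69 and 0.69. The remaining pair, Socs2 with Hsd3b5, was the weakest, with r = 0.55 (adjusted permutation p = 0.023, subset means removed). In controls, with subset means removed, no pair of these genes passed. There r of Socs2 was -0.03 with Ghr, 0.29 with Hsd3b5 and 0.27 with Mup21. The control pairs without Socs2 had a larger r. It was 0.54 for Ghr with Hsd3b5, 0.54 for Ghr with Mup21 and 0.51 for Hsd3b5 with Mup21. Their adjusted permutation p was 0.097, 0.097 and 0.10. In HFD arrays the dimmer Socs2 probe set had r = 0.52 with Ghr, 0.30 with Hsd3b5 and 0.63 with Mup21 (subset means removed, n = 24 arrays). Serpina4-ps1 went with Hsd3b5, with r = 0.77 in arrays 1 to 4 and 0.66 in arrays 5 to 8 (n = 12 arrays each). With subset means removed Egfr passed with Igfals alone (r = 0.68), and Obp2a and Akr1c19 each with none of the other 9 genes. For Egfr the r differed by array number. In arrays 1 to 4 and 5 to 8 it was 0.89 and 0.11 with Hsd3b5 and 0.56 and -0.07 with Ghr. With Mup21 it was 0.54 and -0.32, with Socs2 0.36 and -0.31, and with Igfals 0.27 and 0.82. Array 8 of the 7-day group and array 8 of the 14-day group were each highest in their group for 6 of the 10 genes, Ghr, Socs2, Hsd3b5, Mup21 and Serpina4-ps1 in both groups, with Akr1c19 at 7 days and Igf1 at 14 days. Whether the co-variation of any pair differs between HFD and control arrays was not tested.

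**Figure D4:**
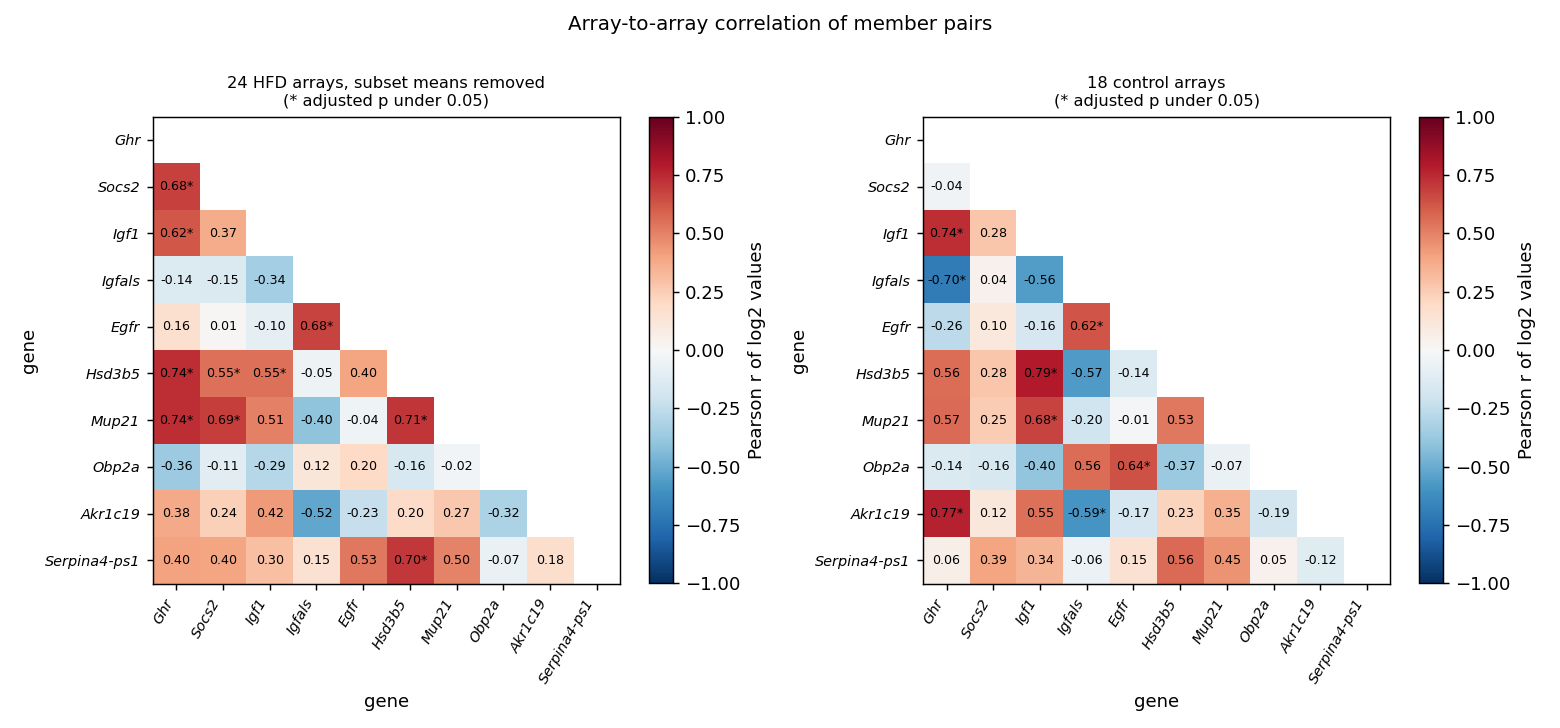
Pearson r of log2 values for the 45 pairs of the 10 genes, in 24 HFD arrays with subset means removed (left) and in 18 control arrays (right). An asterisk marks an adjusted permutation p under 0.05. Igf1 goes with Ghr and with Hsd3b5 in both panels.

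Serpina4-ps1 moved with Malat1, a long non-coding RNA kept in the nucleus. In controls r was 0.79 (rho = 0.82, adjusted permutation p = 0.0055 over 100 relations of the 10 genes with 5 marker measures, n = 18), 0.71 without the 2 farthest arrays, and 0.80 and 0.70 in controls 1 to 9 and 10 to 18. Hsd3b5 went with Malat1 in controls as well (r = 0.68, rho = 0.63, adjusted permutation p = 0.026, n = 18). Malat1 itself separated the HFD arrays by number, at 8.79 to 9.43 in arrays 5 to 8 and 6.596 to 7.01 in arrays 1 to 4 of 7 days, and likewise at 14 and 21 days. Inside these subsets r of Serpina4-ps1 with Malat1 was 0.45 for arrays 1 to 4 and 0.04 for arrays 5 to 8 (n = 12 each), so no pooled value is given. With the acinar level and Malat1 as covariates, the difference of Serpina4-ps1 from control was -1.81, -1.29 and -1.98 at 7, 14 and 21 days. The Kupffer marker level went with Ghr (r = 0.76, rho = 0.79, adjusted permutation p = 0.0060) over the 24 HFD arrays, with r = 0.61 in arrays 1 to 4 and 0.63 in arrays 5 to 8. With Igf1, which splits by array number at 21 days, r of the Kupffer marker level was 0.49 and 0.43 in these subsets. The hepatocyte marker level went with Egfr (r = 0.60, rho = 0.53, adjusted permutation p = 0.026), with r = 0.43 in arrays 1 to 4 and 0.83 in arrays 5 to 8. The part of these markers in the co-variation was not tested beyond the fits named here.

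**Figure D5:**
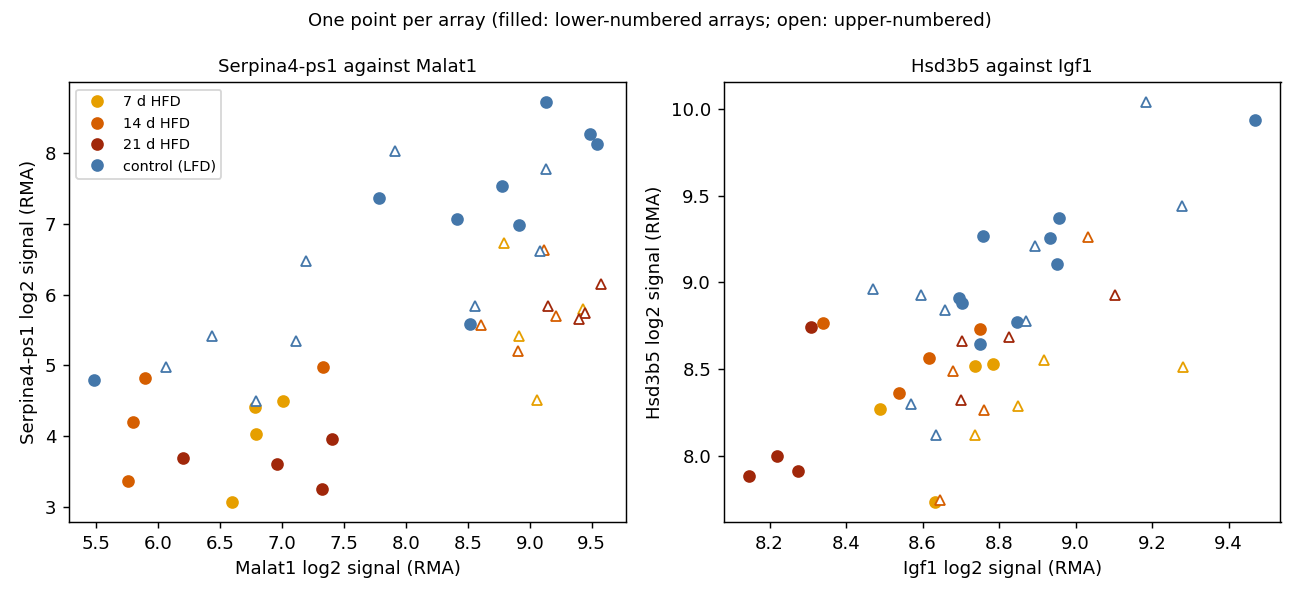
Left, Serpina4-ps1 against Malat1, and right, Hsd3b5 against Igf1, as log2 signal with 1 point per array (filled: arrays 1 to 4, controls 1 to 9; open: higher numbers). On the left the HFD arrays form separate groups by array number, and on the right both genes are high together in controls (r = 0.79, n = 18).

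The co-variation was shared with many genes outside the set. Over the 42 arrays, with group means removed, the first principal component of 12148 genes held 28.2% of the variance. Its r was 0.85 with Igf1, -0.76 with Igfals, 0.65 with Ghr, 0.65 with Mup21, 0.65 with Serpina4-ps1 and 0.62 with Hsd3b5, and 0.78 with Malat1. Igf1 had an r above 0.7 with 916 genes, Igfals with 675 and Ghr with 466, while Serpina4-ps1 had 63, Mup21 58, Egfr 56, Hsd3b5 43, Akr1c19 7 and Obp2a and Socs2 0. These values are descriptions, since the arrays share their processing.

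The nearest neighbours of each gene, by r over the same 42 arrays, held no other gene of the set. They were sought among 11612 genes above background, with genes of predicted or clone names (such as Gm and Rik) left out. Hsd3b5 lay nearest to C9, a complement component (r = 0.84), Cyp2c70, a bile acid hydroxylase (0.80), and Pdilt (0.79). Mup21 lay nearest to Cyp2j6 (0.77), Ugt2b1 (0.77) and Paip2 (0.76). Akr1c19 lay nearest to Hpgd, a prostaglandin dehydrogenase (0.74), Inmt (0.73) and Cyp7a1, which starts bile acid synthesis (0.73). Serpina4-ps1 lay nearest to Wsb1 (0.85), Taf1d (0.82) and Ccnl1 (0.81), and Egfr to Rangap1 (0.82), Prpf6 (0.79) and Gpd2 (0.78). Igf1 lay nearest to Washc4, Stag2 and Agmo (0.92 each), Igfals to Qsox1, Slc22a18 and Dpp9 (0.92 each) and Ghr to Eif2a (0.89), Xrcc5 (0.89) and Gpbp1 (0.87). For Socs2 the nearest were Plcxd2 (0.70), Oser1 (0.62) and Arhgap29 (0.61), and for Obp2a Cd4 (0.63), Rnf185 (0.62) and Denn2b (0.62).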

How the data were processed

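Affymetrix whole-transcript arrays gave the transcript levels of 42 liver samples. The deposited values are log2 signals that the authors made with RMA in Affymetrix Expression Console 1.1, per the submitters' processing notes. RNA was extracted with a miRNeasy kit and DNase, per the labels' protocols. For the array annotation no genome build is named in these sources, and coordinates printed are those of RefSeq windows on GRCm38.p6.

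The table held 32624 probe sets. One had values on control arrays 1 to 9 alone and was left out. Probe sets with 1 symbol numbered 19559, with several 1469 and with none listed 11596. The brightest of the first kind stood for each of 17989 genes, with no filter on dim ones. Array medians ran from 3.08 to 3.28, so no scaling was added. Arrays have no read depth, and their number limits the precision. No array was a copy of another (for any 2 arrays the log2 difference had an SD of at least 0.197).

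One limma 3.58.1 fit (lmFit and eBayes, R 4.3.3) held all 4 groups, with Benjamini-Hochberg adjustment over all genes, 2-sided, and a call at an adjusted p under 0.05. Permutation tests of r used 100000 resamples within groups for the main pairs and for the marker and Cish relations. Fewer resamples were used without the 2 farthest arrays and in the other alternatives. With subset means removed, resamples were also fewer and stayed within the subsets. The fit and the permutation test were checked on simulated data. The labels number replicates without naming animals, so p-values measure only how these samples spread, which may be technical. Deviations of same-numbered arrays had r above 0.1 in 17 of 24 pairs between HFD times (7 of 8 for 14 with 21 days) and in 5 of 24 pairs of HFD with control. The numbers thus carry some shared deviation among HFD arrays, but not every pair passed 0.1 in any comparison, so they were not taken as pairs. The 10 genes and all lists were chosen with earlier results of these data known. The 10 genes were named whatever their result. Other genes were named when called within a list (up to 4 per list and comparison), when in the receptor, inhibitor or IGF lists, as 1 of the 3 nearest neighbours of a gene, or as a marker. Bcl6, Mup3 and Mup5 are named beyond this rule and were chosen after their values were seen. Other scalings, variance models, covariates, array subsets and each array left out in turn were tried.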

Additional observations from a re-analysis of the deposited data

Results flagged for a closer look

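Of 30 groups of 8 arrays (10 genes, 3 HFD times), 2 held an array whose gap to the next was large for the range of the group by Dixon's criterion, which chance alone meets in about 1 in 20 groups. Igfals at 14 days was 6.16 on the log2 scale in array 6, where the next lowest array had 7.40. Array 6 also had the lowest Ghr, Egfr and Obp2a of that group and the highest Akr1c19. Ghr at 14 days was 10.14 in array 8, where the next highest array had 9.95.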

How the results depend on the processing

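The log2 differences of the 10 genes from control were recomputed 1140 times under the alternatives. None of those called in the fit over all genes changed sign, and 4 values moved by more than the SD between arrays, those of Ghr and Igf1 at 21 days given above for arrays 1 to 4 and 5 to 8. Between HFD times Ghr moved likewise: 21 minus 7 days was -0.27 with arrays 1 to 4 and 0.15 with arrays 5 to 8, and 21 minus 14 days -0.24 and 0.21. Genes called against control at 7 days (251) numbered 605 with array weights, 395 with acinar and Malat1 covariates and 144 with HFD arrays 5 to 8. At 14 days (120) they numbered 193 with array weights, 77 with the replicate number as a block, 69 with HFD arrays 1 to 4, 58 with 5 to 8 and 61 with controls 10 to 18. At 21 days (126) they numbered 903 with HFD arrays 1 to 4, 349 with 5 to 8 and 71 with controls 10 to 18. Subsets hold fewer arrays. For 14 against 7 days array weights gave 3 in place of 0. For 21 against 7 days, and for any difference among HFD times, the 1 call was 0 with quantile normalization, the replicate block and either array subset, and array weights gave 0 for the first and 3 for the second.

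Of the 10 genes, those called lower at 7 days (6) were 3 with HFD arrays 1 to 4, 2 with 5 to 8 and 1 with controls 10 to 18. At 14 days (2) arrays 5 to 8 gave 1. At 21 days (5) median centring gave 3, array weights 2, arrays 5 to 8 1 and controls 10 to 18 1. The replicate block gave 4, 3 and 4 at 7, 14 and 21 days: the calls of Obp2a and Egfr at 7 days and of Egfr and Mup21 at 21 days were lost, and Serpina4-ps1 at 14 days and Hsd3b5 at 21 days were gained. Correlated pairs in controls (8) were 0 in controls 1 to 9 alone, in controls 10 to 18 alone and without the 2 farthest arrays. In HFD arrays (19) they were 11 after regression on acinar markers and Malat1, 3 in arrays 1 to 4, 5 in arrays 5 to 8 and 10 with subset means removed, an alternative chosen after seeing the data. The cause of these shifts was not tested. Leaving out each array in turn gave 195 to 265 genes at 7 days, 81 to 125 at 14 days, 107 to 131 at 21 days, 0 to 1 for 14 against 7 days, 0 to 1 for 21 against 7 days, 0 to 0 for 21 against 14 days and 0 to 1 among HFD times. It gave 3 to 6 of the 10 genes at 7 days, 2 to 2 at 14 days and 2 to 6 at 21 days, and 4 to 12 pairs in controls and 14 to 24 in HFD arrays.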

Other observations

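Cish and Bcl6, both outside the set, moved in opposite directions from array to array. The relation was chosen after the values were seen, as 1 of 6 computed over Cish, Socs2 and Bcl6. In the 24 HFD arrays, with group means removed, r was -0.72 (rho = -0.74, adjusted permutation p = 0.00075), -0.72 without the 2 farthest arrays, and -0.71 and -0.70 in arrays 1 to 4 and 5 to 8. In the 18 controls r was -0.63 (rho = -0.68, adjusted permutation p = 0.0093), -0.72 without the 2 farthest arrays, and -0.78 and -0.65 in controls 1 to 9 and 10 to 18. Cish, which STAT5 induces, went with Socs2 in HFD arrays (r = 0.70, rho = 0.67, adjusted permutation p = 0.00075). In controls it had r = 0.43 (rho = 0.51, adjusted permutation p = 0.088). Over all 42 arrays with group means removed, r with Cish was 0.56 for the brighter Socs2 probe set and 0.45 for the dimmer. Socs2 with Bcl6 did not pass in HFD arrays (r = -0.24, rho = -0.23, adjusted permutation p = 0.29) or in controls (r = -0.49, rho = -0.50, adjusted permutation p = 0.064).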
